A study of Mus musculus with 6 samples.

Results

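The 7 genes described here encode secreted proteins that protect mucosal surfaces: *Ltf* (lactoferrin), *Lcn2* (lipocalin 2), *Pigr* (the polymeric immunoglobulin receptor), the lysozymes *Lyz1* and *Lyz2*, *Slpi* (secretory leukocyte peptidase inhibitor) and *Wfdc2* (a whey acidic protein domain protein). They were taken by their symbols from the 23420 genes of the deposited count tables, and all 7 were found in both. RNA had been sequenced from the luminal layer of the mouse uterus, cut out by laser microdissection, and from blastocysts flushed from the uterus, at 8 pm on day 4 of pregnancy. The luminal groups were females of genotype *Lif*-floxed/floxed given PBS (control), *Lif*-floxed/floxed *Ltf*-Cre/+ given PBS (eKO, in which the cytokine gene *Lif* is deleted in the uterine epithelium) and the same eKO genotype given recombinant Lif (eKO + rLif). Each rLif-treated female received 20 µg of the protein per injection, the first at 10 am and the second at 6 pm, and tissue was taken 2 h later. Blastocysts came from females of the same 3 groups, and their own genotype was labelled *Lif*-floxed/+ in all 3. The age of the females was not given in the sources used here. Each group was 1 library from pooled RNA or pooled blastocysts, so no difference had a replicate check and no p-value is given.

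Cre was driven by the promoter of *Ltf*, which is itself 1 of the 7 genes, and the *Ltf*-Cre/+ allele was present in both eKO groups and absent from the control. For *Ltf*, the effect of that allele and the effect of losing *Lif* therefore cannot be told apart. The targeted gene *Lif* had 0, 28 and 0 counts in the luminal libraries labelled control, eKO and eKO + rLif, so its only counts were in a library labelled eKO. The paper places *Lif* in the uterine glands before attachment, so these few luminal counts cannot check the labels. Luminal libraries are therefore named here by their labels. The luminal markers *Epcam*, *Cdh1* and *Krt8* had at least 5859 counts in every luminal library, and the inner cell mass marker *Nanog* and the trophectoderm marker *Cdx2* had at least 2094 counts in every blastocyst library. *Wnt7a*, a transcript of the uterine luminal epithelium, had 2916 to 4338 counts in the luminal libraries and 0 in all 3 blastocyst libraries. The gland marker *Foxa2* had 3, 0 and 10 counts in the luminal libraries. Libraries held 18996158 to 28460465 counts. Where a ratio needed a value for a count of 0, a floor of 3 counts was used. This floor stood at 0.104 to 0.157 CPM, read counts scaled to a common library size.

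Mucosal epithelia release such proteins into the fluid that covers them. Lactoferrin binds iron and is a classical estrogen-induced secretion of the mouse uterus, and lipocalin 2 binds the siderophores with which bacteria take up iron. Lysozymes cleave the bacterial cell wall, the polymeric immunoglobulin receptor carries IgA across the epithelium, and Slpi and Wfdc2 belong to a family of small protease-inhibitor-like proteins with a whey acidic protein (WAP) fold. Lif signals through Stat3, and C/EBP, NF-kappaB and Stat factors are known regulators of epithelial defence genes.

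In the GRCm38/mm10 coordinates of the deposited tables, *Ltf* lay at chr9:111019292-111042766 on the plus strand in 17 exon blocks. *Lcn2* lay at chr2:32384637-32387739 on the minus strand in 6. *Pigr* lay at chr1:130826684-130852249 on the plus strand in 11. *Lyz2* (chr10:117277541-117282272) and *Lyz1* (chr10:117287795-117292868) are neighbours on the minus strand with 4 exon blocks each and 5522 bases between them. *Slpi* (chr2:164354070-164356507, minus strand, 4 exon blocks) and *Wfdc2* (chr2:164562716-164568506, plus strand, 5 exon blocks) lie 206208 bases apart. None of the 7 shared exon bases with another gene of the tables.

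The 250 bases before the RefSeq start (GRCm38.p6) are printed for *Lcn2*, *Ltf*, *Lyz1* and *Slpi*, the 4 genes of the set that differed by more than 2-fold between luminal libraries under the rule given below. Capitals mark matches to the C/EBP letters TTGCNNAA on either strand.
Lcn2, chr2:32387740-32387989, minus strand: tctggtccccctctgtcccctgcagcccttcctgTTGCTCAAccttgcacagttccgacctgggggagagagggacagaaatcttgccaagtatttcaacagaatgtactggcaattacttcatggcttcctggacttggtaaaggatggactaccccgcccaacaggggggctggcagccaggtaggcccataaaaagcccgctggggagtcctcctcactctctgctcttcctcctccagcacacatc
Ltf, chr9:111019042-111019291, plus strand: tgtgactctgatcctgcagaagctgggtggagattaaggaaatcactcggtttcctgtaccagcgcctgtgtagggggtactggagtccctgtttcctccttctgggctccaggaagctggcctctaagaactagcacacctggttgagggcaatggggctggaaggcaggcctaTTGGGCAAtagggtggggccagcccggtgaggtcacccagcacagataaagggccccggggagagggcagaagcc
Lyz1, chr10:117292869-117293118, minus strand: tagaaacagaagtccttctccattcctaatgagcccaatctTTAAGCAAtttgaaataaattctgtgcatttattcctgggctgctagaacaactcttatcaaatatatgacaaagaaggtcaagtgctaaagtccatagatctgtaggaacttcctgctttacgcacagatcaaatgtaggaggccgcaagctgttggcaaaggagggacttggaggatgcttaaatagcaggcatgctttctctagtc
Slpi, chr2:164356508-164356757, minus strand: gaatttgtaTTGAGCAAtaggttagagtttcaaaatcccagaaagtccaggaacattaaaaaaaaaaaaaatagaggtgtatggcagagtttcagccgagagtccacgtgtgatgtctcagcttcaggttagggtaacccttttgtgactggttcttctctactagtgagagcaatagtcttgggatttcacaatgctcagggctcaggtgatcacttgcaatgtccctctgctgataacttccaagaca
The window searched in every gene was these 250 bases and the 50 that follow. The C/EBP letters occurred in 4 of the 7 genes, these 4, against 10.8% of all 32851 promoters. A Stat match (TTCNNNGAA, 8.3% of promoters) occurred in *Pigr* alone, 39 to 47 bases after the start. A simple NF-kappaB motif (1.47% of promoters) and the palindromic estrogen response element (0.07%) had no match in any of the 7. A match describes letters, not a bound site, and the set was assembled with results of these data known.

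*Lyz1* and *Lyz2* are copies with closely similar coding sequences. These sequences, from GENCODE M21 (GRCm38, chromosome 10, minus strand), are printed because reads can be shared between the 2 genes. The first 300 of 447 bases are shown, and capitals mark the 20 of the 22 differences that lie there.
Lyz1: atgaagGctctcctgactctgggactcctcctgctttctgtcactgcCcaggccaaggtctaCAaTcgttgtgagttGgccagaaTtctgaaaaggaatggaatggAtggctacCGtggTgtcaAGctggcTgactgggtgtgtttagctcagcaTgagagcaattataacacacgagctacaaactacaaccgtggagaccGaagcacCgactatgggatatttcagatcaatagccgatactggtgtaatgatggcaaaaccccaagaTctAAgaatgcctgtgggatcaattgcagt
Lyz2: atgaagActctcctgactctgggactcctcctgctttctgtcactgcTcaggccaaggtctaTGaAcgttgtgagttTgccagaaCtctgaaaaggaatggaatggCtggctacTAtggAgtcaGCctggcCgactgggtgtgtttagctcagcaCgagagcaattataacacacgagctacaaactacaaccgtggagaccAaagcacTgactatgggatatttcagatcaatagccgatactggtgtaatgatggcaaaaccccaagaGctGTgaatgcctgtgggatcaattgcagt
The sequences were 95.1% identical, with a longest shared run of 118 bases. Over whole transcripts, 195 of the 1214 windows of 50 bases in *Lyz1* (16.1%) also occurred in *Lyz2*, as did 24 of its 1164 windows of 100 bases (2.06%). The 50 bases directly before the 2 start sites were identical as well. How reads that map to both copies were counted was not stated, so the division of counts between them is uncertain.

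Levels between genes were compared in CPM per kb of exon length. In the luminal library labelled control the order was *Wfdc2* (3314), *Lyz2* (704.5), *Lcn2* (195), *Ltf* (39.7), *Lyz1* (20.8), *Pigr* (11.4) and *Slpi* (3.80). *Wfdc2* was thus among the most abundant transcripts of the epithelium, at rank 11 of all genes in the library labelled control, 24 in eKO and 19 in eKO + rLif. *Lyz2* ranked 93, 170 and 227. The place of *Lcn2* shifted most, from rank 531 in the library labelled control to 7636 in eKO and 306 in eKO + rLif. In the library labelled eKO the order was *Wfdc2* (2002), *Lyz2* (579.4), *Lyz1* (94.4), *Ltf* (12.6), *Pigr* (10.5), *Lcn2* (4.49) and *Slpi* (1.27), so *Lyz1* had moved up to place 3 and *Lcn2* down to place 6. In eKO + rLif, *Lcn2* (397.3) again followed *Wfdc2* (3014) and *Lyz2* (519.3). No 2 neighbours in these luminal orders had overlapping counting intervals. By coding length, however, *Lyz1* stood above *Ltf* in control and *Pigr* above *Ltf* in eKO.

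**Figure D1:**
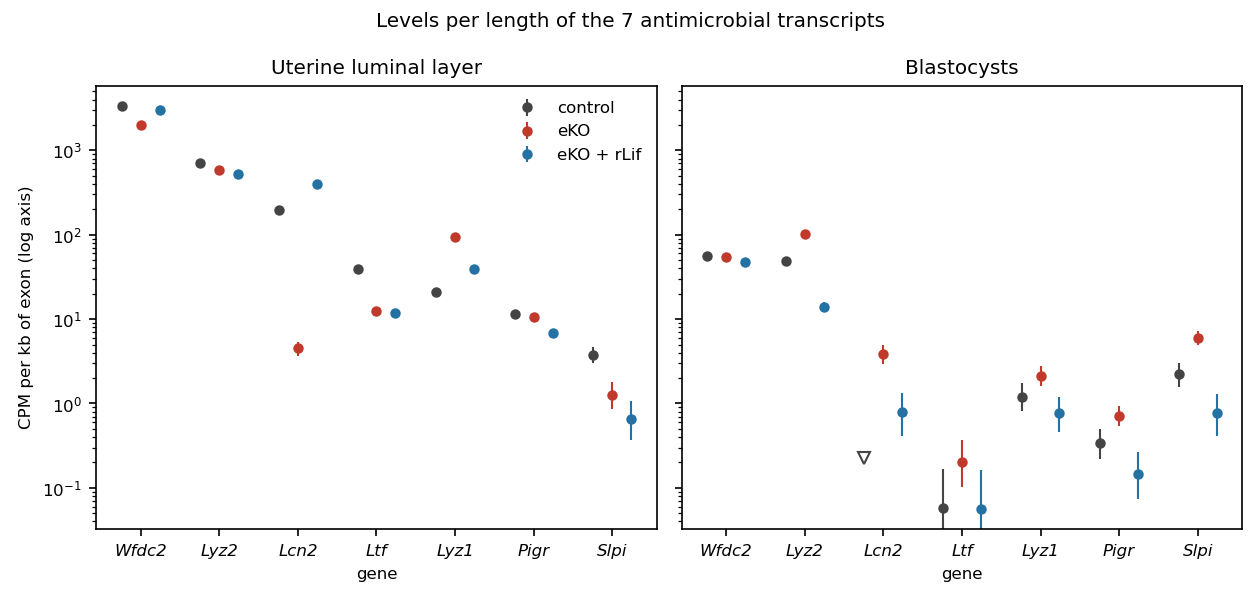
Levels of the 7 genes in CPM per kb of exon on a log axis, by library, in the luminal layer (left) and blastocysts (right). Points are single libraries, bars are exact Poisson 95% intervals of the count, and the open triangle is the upper limit for a count of 0. *Lcn2* in the luminal library labelled eKO (4.49) lies far below those labelled control (195) and eKO + rLif (397.3).

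Summed, the 7 genes took 0.364%, 0.225% and 0.293% of the luminal counts in control, eKO and eKO + rLif. *Wfdc2* alone held 68.2%, 63.6% and 68.2% of that sum, so the total follows *Wfdc2* and hides the others. Blastocysts held far less, 0.00958%, 0.0162% and 0.00516%, of which *Lyz2* held 53.6%, 67.0% and 28.9%. *Lyz2* was the largest contributor in control and eKO blastocysts, and *Wfdc2* in eKO + rLif (653 of 1001 counts).

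The libraries labelled eKO and control were compared first, to ask which of these secretions differed where epithelial Lif was deleted. *Lcn2* and *Ltf* were lower in the library labelled eKO, *Lyz1* was higher, and the 4 others stayed within the limit. A gene was called when the exact 95% Clopper-Pearson interval of the ratio of 2 libraries lay wholly beyond a log2 ratio of 1, a rule that compares libraries and not conditions. By this rule 2 of the 7 were lower and 1 was higher, against 9.15% of 15694 tested genes lower and 8.08% higher. The median log2 ratio of the 7 was -0.73, against 0.00711 over all tested genes. In pooled tissue, fewer cells of a type and less RNA per cell cannot be told apart.

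The control, eKO and eKO + rLif libraries held 4200, 110 and 8824 counts of *Lcn2*. The library labelled eKO was the low one, 43.4-fold below control (log2 ratio -5.44, interval -5.73 to -5.17), and 61 of all tested genes had a smaller ratio. *Ltf* had 2745, 992 and 851 counts, so both libraries carrying the Cre allele were low. The eKO library stood at -1.65 relative to control on the log2 scale (-1.76 to -1.55). *Lyz1* had 664, 3430 and 1283 counts, which made eKO the high library, 4.54-fold above control (log2 2.18, 2.06 to 2.31).

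The second lysozyme did not show this pattern. *Lyz2* had 18800, 17587 and 14292 counts, and eKO differed from control by -0.28 on the log2 scale (-0.31 to -0.25). *Lyz1* accordingly made up 3.41% of the lysozyme counts in control (exact 95% interval 3.16 to 3.68), 16.3% in eKO (15.8 to 16.8) and 8.24% in eKO + rLif (7.81 to 8.68). When the 2 copies were added, eKO stood at -0.075 relative to control. *Lyz2* made up most of that sum, so the sum cannot show whether the *Lyz1* call holds. The call concerns *Lyz1* counted apart from *Lyz2*.

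*Slpi*, which inhibits neutrophil serine proteases, was sparse, with 84, 32 and 15 counts. The interval of its eKO ratio to control (log2 -1.58) ran from -2.21 to -0.98 and so just missed the limit, and under total-count scaling the same gene was called (-1.65). *Wfdc2* had 59241, 40714 and 55566 counts, with eKO the lowest and a log2 ratio of -0.73 (-0.75 to -0.71). *Pigr* had 1112, 1159 and 686 counts, a log2 difference of -0.13 (-0.25 to -0.0062) and the smallest difference of the 7.

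The libraries labelled eKO + rLif and eKO were compared next, to ask which transcripts differed after Lif was supplied. *Lcn2* was higher in the rLif-treated library, *Lyz1* was lower, and *Ltf* differed by less than the limit. This made 1 of the 7 higher and 1 lower, against 7.88% and 7.77% of all tested genes, and the median of the 7 was -0.16 against -0.00825. *Lcn2* was 88.5-fold higher (log2 6.47, 6.20 to 6.75), and 32 of all tested genes had a larger ratio. *Lyz1* had a log2 ratio of -1.28 (-1.37 to -1.18), and the 2 copies added, mostly *Lyz2*, had -0.29. The log2 ratio of *Ltf* was -0.08 (-0.21 to 0.05). *Wfdc2* had 0.59 (0.57 to 0.61), *Lyz2* -0.16, *Pigr* -0.62 and *Slpi* -0.95 (-1.94 to -0.025).

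Against the library labelled control, the rLif-treated library had lower *Ltf* and *Slpi*. None of the 7 was called higher and 2 were called lower, against 4.12% and 5.04% of all tested genes, with a median of -0.44 against 0.0126. *Ltf* had a log2 ratio of -1.73 (-1.85 to -1.62) and *Slpi* of -2.53 (-3.43 to -1.73). *Lcn2* was above control at 1.03, but its interval (0.97 to 1.08) included the limit. *Lyz1* was also above control and not called (0.91, 0.77 to 1.04). *Pigr* (-0.74), *Lyz2* (-0.44) and *Wfdc2* (-0.14) lay within the limit. Scaling by total counts lowered every ratio of this comparison by 0.18 on the log2 scale and moved the all-gene split from 647 higher and 791 lower to 439 and 1031. In the comparison of eKO + rLif with eKO the same change lowered every ratio by 0.11. The 3 luminal comparisons share libraries 2 by 2, so a gene high or low in 1 library appears in 2 of them.

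**Figure D2:**
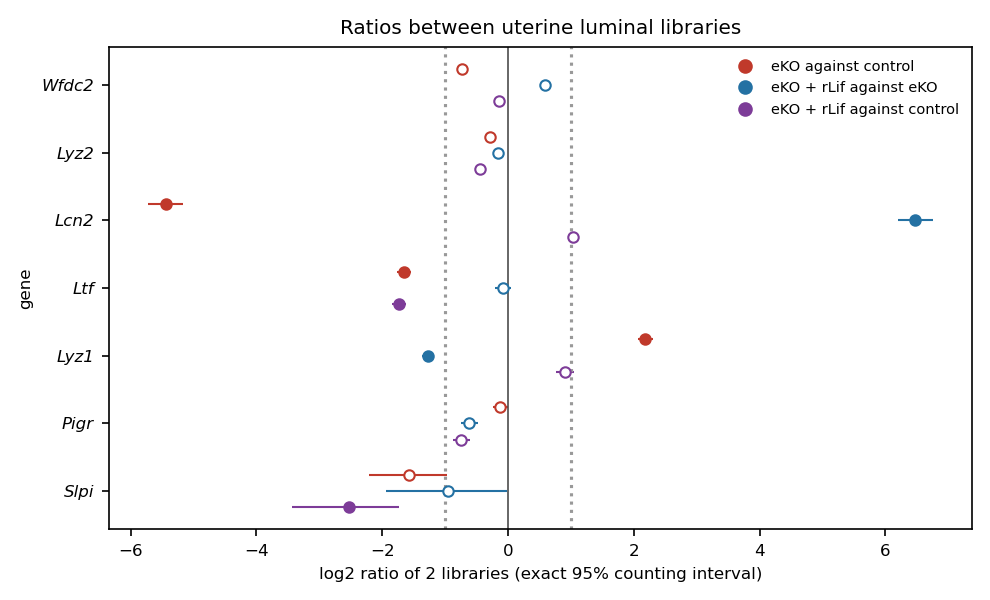
Log2 ratios of the 7 genes between pairs of luminal libraries, with exact 95% counting intervals and the limits at -1 and 1 as dotted lines. Filled points were called and open points were not. *Lcn2* stands at -5.44 for eKO against control and 6.47 for eKO + rLif against eKO, while *Ltf* stands at -1.65 and -0.08.

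Other tested genes with the nearest pair of luminal ratios (eKO against control and eKO + rLif against eKO) were sought among 12838 genes with at least 100 counts, for each of the 4 called genes, and the distance is the straight line between the 2 log2 ratios. *Lcn2* lay at the sparse edge of these ratios, with 61 of all tested genes below its first ratio and 32 above its second. Only 3 lay within 0.5 of it: *Trpm6*, a magnesium channel (2132, 54 and 3718 counts), *Cldn10*, a tight junction claudin (27483, 911 and 67012), and *Tead4*, a transcription factor (107, 0 and 173, with the 0 taken at the floor of 3 counts). Genes farther away, such as *Chi3l1* and *Defb1* described below, were also lowest in eKO and highest in eKO + rLif. Within 0.5 of *Ltf* lay 104 genes, the nearest being *Bmp3*, *Cd69* and *Enah*. Within 0.5 of *Lyz1* lay 106, led by *Sct*, *Ndufc2* and *Tspyl4*. These numbers depend on how densely genes lie around each point, so they do not measure how particular a pattern is. For *Slpi* there were 30, led by *Adamdec1*, *Clec4n* and *Wfdc15b*, the last a WAP-domain relative of *Slpi* (441, 159 and 79 counts).

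Other secreted antimicrobial genes were examined beside the set. Counts called in this and the later luminal lists stand against the shares of all tested genes. These were 9.15% lower and 8.08% higher for eKO against control, and 7.77% and 7.88% for rLif against eKO. Against control, the rLif-treated library had 5.04% lower and 4.12% higher. Of 38 listed, 21 were tested in the luminal layer. The eKO library was below control in 6 and above it in 1, with a median log2 ratio of -0.53. *Chi3l1*, a chitinase-like protein, had 1529, 11 and 2427 counts in control, eKO and eKO + rLif (-7.30 for eKO against control, -8.31 to -6.46). *Defb1*, a beta-defensin, had 264, 3 and 1807 (-6.65, -8.93 to -5.08). *Sftpd*, the collectin surfactant protein D, had 18044, 1293 and 31211 (-3.99). These 3 were lowest in the library labelled eKO, as were *Hp*, which encodes haptoglobin (118, 3 and 160 counts), and the chemokine *Cxcl14* (4847, 878 and 3711). *S100a9*, a calprotectin subunit, was lower as well and had 72, 16 and 1 counts. The gene that was higher was the angiogenin *Ang4*, with 0, 70 and 4 counts. With the 0 taken at the floor of 3 counts it was 20.5-fold higher (interval from a log2 ratio of 4.02).

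Between the rLif-treated library and the one labelled eKO, 7 of the 21 were higher and 2 lower (median 0.30). The 7 were *Defb1*, *Chi3l1*, *Sftpd*, *Hp*, *Cxcl14*, the C-type lectin *Reg3g* (3, 0 and 14 counts) and the lipopolysaccharide-binding protein *Lbp* (5732, 3347 and 7081), and the 2 lower were *Ang4* and *S100a9*. *Defb1* had a log2 ratio of 9.38 (7.83 to 11.7) and *Sftpd* of 4.73 (4.65 to 4.82). Against control, 2 were higher and 1 lower (median 0.38). *Defb1* was above control at 2.73 (2.54 to 2.92), and *Hpx* (2, 17 and 23 counts) was the other.

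WAP-domain and lysozyme relatives were called in both directions. Of 21 listed, 10 were tested, and the eKO library exceeded control in 3 and fell short of it in 1 (median 0.75). *Eppin* had 364, 1368 and 435 counts, *Wfdc13* had 921, 2902 and 1189, and *Wfdc6a* had 50, 195 and 46, so all 3 were highest in eKO, as *Lyz1* was. *Wfdc15b* was the lower one. In eKO + rLif against eKO these 3 were lower and none was higher (median -0.89). Against control only *Wfdc15b* was called, lower (median -0.045).

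Among 26 tested regulators of mucosal defence genes, 6 were lower and 2 higher in the library labelled eKO (median -0.76), and 9 were higher and none lower with rLif against eKO (median 0.69). *Cebpd* had 22069, 4754 and 59120 counts, *Cebpb* 20279, 6636 and 35920, and *Cebpa* 3288, 646 and 2188, so the 3 C/EBP factors were all lowest in the library labelled eKO. Relative to control, eKO stood at -2.40, -1.80 and -2.53 (log2) in these 3 genes. The NF-kappaB subunit *Rela* (4267, 2029 and 3184 counts), the Toll-like receptor *Tlr2* (356, 121 and 207) and the TNF receptor *Tnfrsf1a* (1705, 609 and 1522) were the other 3 that were lower. The progesterone receptor *Pgr* (594, 1736 and 928) and the interleukin 1 receptor *Il1r1* (515, 1502 and 749) were higher. With rLif against eKO the 9 were the 3 C/EBP factors, *Tnfrsf1a*, *Stat3*, *Tlr4*, *Nfkbia*, *Nfkbiz* and *Foxa2*. Against control, *Cebpd* (1.38) and *Nfkbia* (1.09) were higher and *Il17rc* (-1.29) was lower.

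**Figure D3:**
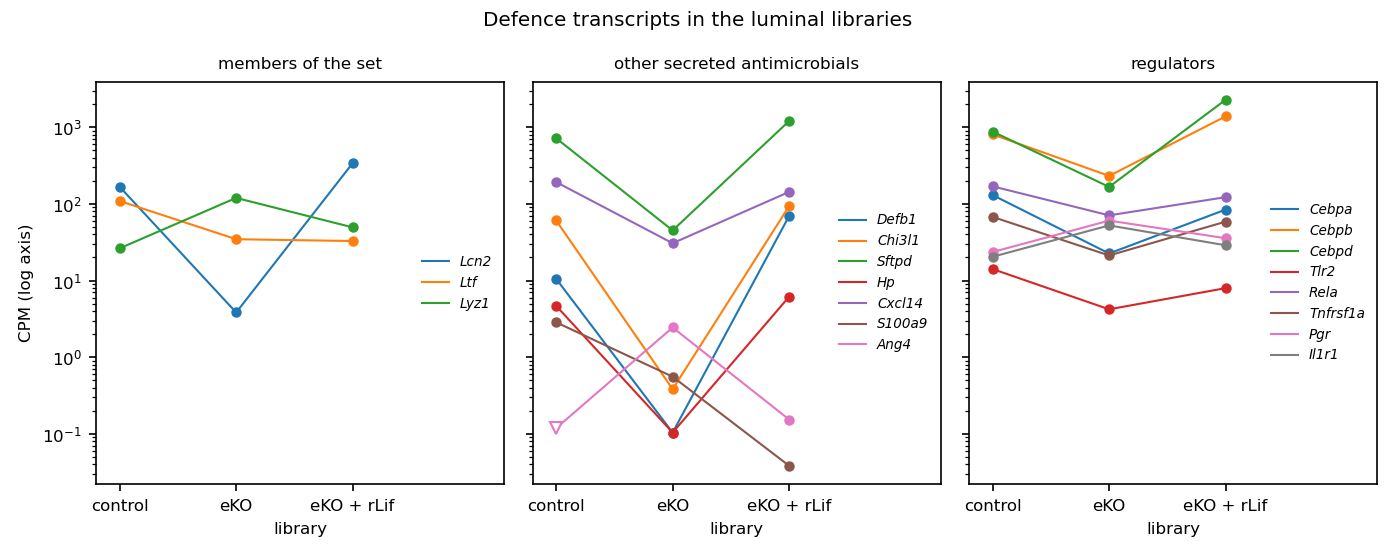
CPM on a log axis in the 3 luminal libraries for the 3 genes of the set, the 7 other secreted antimicrobial genes and the 8 regulators called for eKO against control. Each line joins 1 gene across single libraries, and the open triangle marks a count of 0 drawn at the floor of 3 counts. *Lcn2*, *Defb1*, *Chi3l1*, *Sftpd*, *Hp*, *Cxcl14* and the C/EBP genes are lowest in the library labelled eKO, *Lyz1*, *Ang4*, *Pgr* and *Il1r1* are highest there, and *Ltf* is at 34.5 CPM in eKO and 32.7 in eKO + rLif.

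*Ltf* is known as an estrogen-responsive gene, and 7 others of that kind were set beside it. The eKO library was below control in 4 and above it in 1 (median -1.74). Complement *C3* had 687, 50 and 515 counts, the cornified envelope gene *Sprr2f* had 16676, 4089 and 94769, *Clu* (clusterin) had 6538, 2118 and 6456, and *Greb1* had 106, 36 and 58. *Igf1* was the higher one (2697, 9625 and 3487). With rLif against eKO, 4 were higher (*Sprr2f*, *C3*, *Clu* and *Muc1*) and 2 lower (*Igf1* and *Aqp5*), with a median of 1.15. *C3* and *Clu* thus had counts in the rLif-treated library near those of control, at log2 ratios against eKO of 3.51 and 1.75, whereas *Ltf* had -0.08. Against control, *Sprr2f* (2.46) and *Muc1* (1.29) were higher and *Aqp5* (-4.92) was lower (median -0.063).

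Receptors and partners of the 7 proteins were listed as well, and 6 of 8 were tested. *Lrp1*, a receptor that takes up lactoferrin, had 192, 563 and 435 counts, and *Lrp2* (megalin), a receptor for lipocalin 2, had 4929, 12913 and 7243. Both were higher in eKO than control, while the transferrin receptor *Tfrc* was lower (1947, 453 and 982 counts). The median of the 6 was 0.49. *Slc22a17*, another lipocalin 2 receptor, had 530, 636 and 305 counts and was not called. *Tfrc* alone was called with rLif against eKO, higher at 1.26 (median -0.46), and none was called against control (median -0.12). Of the 4 genes of immunoglobulin transport and source that were tested beside *Pigr*, none was called for eKO against control (median -0.29). *Mzb1*, a plasma cell protein, had 46, 43 and 8 counts and was lower with rLif against both others (medians -0.42 and 0.13), and the joining chain gene *Igj* had 82, 50 and 119.

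Leukocytes also make several of these proteins, so their markers were summed. Neutrophils store lactoferrin and lipocalin 2 in granules. The 9 neutrophil markers found summed to 5.39, 1.78 and 1.34 CPM in the luminal libraries. Of the 4 defining ones, *S100a8* had 53, 31 and 28 counts and *S100a9* 72, 16 and 1, both highest in control, while *Mpo* had 0, 0 and 2 and *Elane* 0, 2 and 0. The sum, like *Lcn2* and *Ltf*, was higher in control than in eKO, and unlike *Lcn2* it was lowest in eKO + rLif. The part of these cells in the values of *Lcn2* and *Ltf* was not tested. Of 3 neutrophil markers tested, *S100a9* was lower in all 3 luminal comparisons and *Cxcr2* (10, 0 and 2 counts) in eKO against control. *Lyz2* is a macrophage gene as well. The 10 macrophage markers summed to 507.9, 470.3 and 815.9 CPM, none was called in any of the 3 luminal comparisons, and *Lyz2* had 744.7, 612.4 and 548.9 CPM. The 4 leukocyte markers summed to 145.1, 184.7 and 185.9 CPM with none called, and the 4 plasma cell markers to 99.9, 44.3 and 147 CPM, mostly *Sdc1*, which epithelia also express.

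Uterine glands are the source of Lif before attachment. The 5 gland markers summed to 11.0, 13.1 and 24.7 CPM in control, eKO and eKO + rLif, of which *Foxa2* (3, 0 and 10 counts), *Prss28* (55, 13 and 142) and *Prss29* (123, 111 and 315) were called higher with rLif against eKO. *Prss28* was also called lower in eKO than in control. *Foxa2*, *Prss28* and *Prss29* were, like *Lcn2*, lowest in the library labelled eKO and highest in eKO + rLif, and the other 2, *Spink3* (81, 207 and 127 counts) and *Il8* (the table's symbol for *Cxcl15*, 16, 44 and 48), were lowest in control. The part of these markers in the *Lcn2* values was not tested. The 7 luminal epithelium markers summed to 4596, 4719 and 4711 CPM. The 6 stroma markers summed to 676.4, 1069 and 706.5 CPM, with *Col3a1* called higher in eKO than in control. The 4 smooth muscle markers summed to 51.1, 40.1 and 26.2 CPM. Of these 4, 1 was called lower in eKO against control, 1 with rLif against eKO and 2 with rLif against control. Their medians were -0.39, -1.16 and -1.8, none was called higher, and their part in the values of the set was not tested. The stroma sum was highest in the library in which *Lyz1* was highest, and its part in that result was not tested.

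Blastocysts had low counts of the set. *Wfdc2* and *Lyz2* led the order of levels in CPM per kb in all 3 libraries, at 55.6 and 48.4 in control, 55.1 and 103 in eKO, and 47.5 and 14.1 in eKO + rLif. *Slpi* had 2.22, 6.02 and 0.763, and *Lyz1* 1.20, 2.14 and 0.773. *Pigr* had 0.341, 0.718 and 0.147. *Ltf*, with 3, 11 and 3 counts, was at the edge of detection. In eKO + rLif the intervals of *Lcn2*, *Lyz1* and *Slpi*, places 3 to 5 in the order, overlapped, as did those of *Pigr* and *Ltf* behind them. In control *Slpi* overlapped *Lyz1*, and *Ltf* overlapped *Lcn2*.

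Blastocysts flushed from eKO and control females were compared to ask whether the uterine environment went with a difference in the embryo. *Lcn2* was higher with eKO and the other 6 were not called. This was 1 of the 7 higher and none lower, against 1.29% and 1.86% of 14873 tested genes, with a median of 1.09 against -0.00284. *Lcn2* had 0, 64 and 13 counts in control, eKO and eKO + rLif. The eKO library stood 20.8-fold above control when the 0 is taken at the floor of 3 counts. The counting interval of that ratio, which also covers the error of the 64 counts, began at a log2 ratio of 4.04. *Slpi* had 37, 103 and 13 counts, with the eKO library highest and a log2 ratio of 1.44 (0.89 to 2.02). *Lyz2* had 976, 2128 and 289 counts, again highest in eKO, at 1.09 with the limit inside its interval (0.98 to 1.20). *Pigr* had 25, 54 and 11 counts (1.08, 0.37 to 1.82) and *Lyz1* 29, 53 and 19 (0.83, 0.15 to 1.54). *Wfdc2*, with 750, 762 and 653 counts, had a log2 ratio of -0.01 (-0.16 to 0.13).

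Between blastocysts of eKO females with and without rLif, 4 of the 7 were lower and none was higher, against 2.83% and 0.914% of all tested genes. The median was -2.29 against -0.00985. *Slpi* had a log2 ratio of -2.98 (-3.94 to -2.14), *Lyz2* of -2.87 (-3.05 to -2.69), *Lcn2* of -2.29 (-3.28 to -1.42) and *Pigr* of -2.29 (-3.37 to -1.34). All 4 were highest in the eKO library, and *Lyz2* rests on far more counts than the other 3. *Lyz1* (-1.47, -2.31 to -0.69) was not called, *Ltf* had 11 against 3 counts (-1.87, -4.35 to 0.05), and *Wfdc2* had -0.21.

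Against control blastocysts, those of rLif-treated eKO females had higher *Lcn2* and lower *Lyz2* (-1.78, -1.98 to -1.59). *Lcn2* had 13 counts against 0 (4.25-fold by the same floor, interval from a log2 ratio of 1.58). Thus 1 of the 7 was called in each direction, against 0.948% higher and 3.99% lower over all tested genes. The median, which leaves out *Ltf* at 3 counts in both, was -0.93 against -0.0121. *Slpi* (-1.54, -2.57 to -0.59), *Pigr* (-1.21, -2.38 to -0.14), *Lyz1* (-0.64, -1.55 to 0.25) and *Wfdc2* (-0.23) were not called. Uterine stroma markers were lower in the same comparison, 3 of 6 by the rule (median -1.49). These were *Col3a1* (122, 60 and 28 counts in control, eKO and eKO + rLif), *Dcn* (164, 84 and 51) and *Hoxa10* (48, 17 and 6). *Vim* (191, 72 and 100) was the 1 of 6 called lower in eKO against control (median -1.03), and none was called with rLif against eKO (median -0.73). The 6 markers summed to 153, 158.9 and 150.2 CPM, most of it *Pdgfra* (2354, 2845 and 2718 counts). *Pdgfra* was higher in blastocysts (123, 146 and 140 CPM) than in the luminal layer (34.1, 35.4 and 24.3 CPM). The flat sum therefore does not show equal amounts of uterine stroma. The remaining markers, *Col1a1* (38, 27 and 16 counts) among them, were all highest in control. The part of the stroma markers in the values of the set was not tested.

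**Figure D4:**
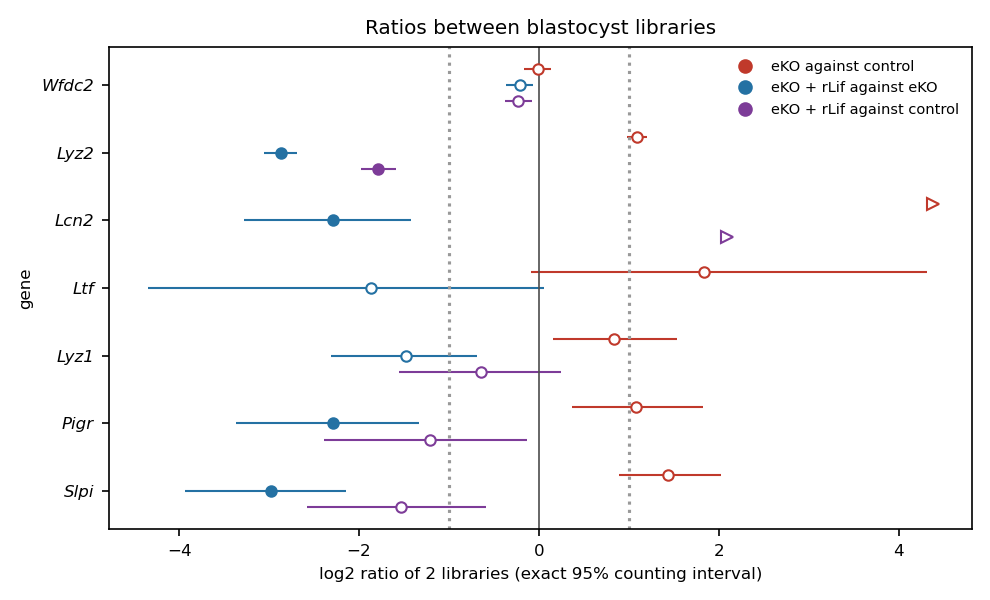
Log2 ratios of the 7 genes between pairs of blastocyst libraries, with exact 95% counting intervals and the limits at -1 and 1 as dotted lines. *Ltf* for eKO + rLif against control, with 3 counts in both libraries, is not drawn. Filled points were called and open points were not. Open triangles, both called, are ratios against a count of 0 taken at the floor of 3 counts. *Lyz2*, *Slpi*, *Lcn2* and *Pigr* lie between -2.98 and -2.29 for eKO + rLif against eKO, while *Wfdc2* lies near 0 in all 3 comparisons.

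Macrophage markers were examined in blastocysts as well. Counts called in the blastocyst lists, stroma markers included, stand against the shares of all tested genes. These were 1.86% lower and 1.29% higher for eKO against control, and 2.83% and 0.914% for rLif against eKO. Against control, the rLif-treated library had 3.99% lower and 0.948% higher. The 10 markers summed to 48.1, 73.3 and 22.9 CPM in control, eKO and eKO + rLif, against 51.2, 108.9 and 14.9 CPM for *Lyz2*. Of 9 tested, none was called for eKO against control (median 0.65). *C1qa* (104, 97 and 34 counts), *Mrc1* (15, 2 and 7), *Cx3cr1* (20, 4 and 2) and *Aif1* (4, 1 and 1) were highest in control. With rLif against eKO 5 were lower (median -1.68), namely *Fcgr3* (511, 824 and 256 counts), *Emr1* (28, 68 and 15), *Csf1r* (31, 68 and 10), *C1qb* (100, 163 and 25) and *C1qc* (62, 140 and 40). Against control 3 were lower, *C1qa*, *C1qb* and *Cx3cr1* (median -1.13). Their part in the blastocyst values of *Lyz2* and the others was not tested.

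**Figure D5:**
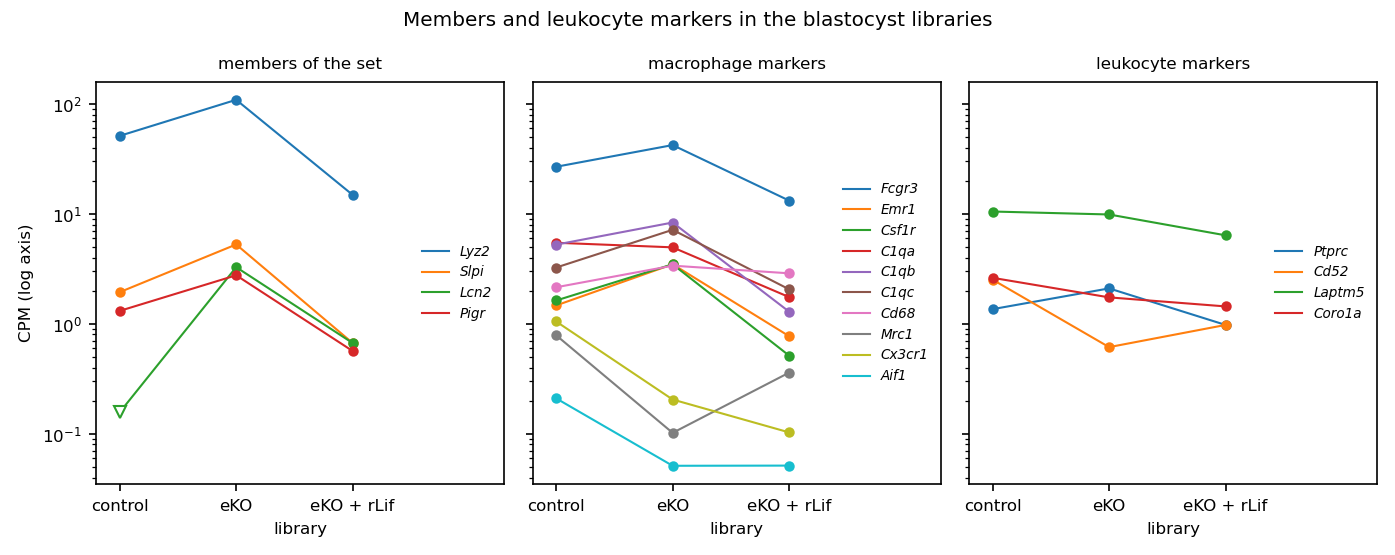
CPM on a log axis in the 3 blastocyst libraries for 4 genes of the set, the 10 macrophage markers and the 4 leukocyte markers. Lines join 1 gene across single libraries, and the open triangle marks a count of 0 drawn at the floor of 3 counts. *Lyz2* (51.2, 108.9 and 14.9 CPM), *Fcgr3*, *Emr1*, *Csf1r*, *C1qb* and *C1qc* are highest in the eKO library and lowest in eKO + rLif, while *C1qa*, *Mrc1*, *Cx3cr1* and *Aif1* are highest in control and *Cd68* is lowest there.

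The 9 neutrophil markers summed to 15.0, 11.8 and 6.84 CPM in blastocysts, most of it *Cxcr2* (236, 122 and 69 counts). *S100a8*, a calprotectin subunit, had 6, 33 and 7 counts and was called higher in eKO than in control (2.42) and lower with rLif (-2.23), while *Mpo* had 0, 0 and 2 counts and *Elane* 0 in all 3. The 4 leukocyte markers summed to 17.0, 14.3 and 9.77 CPM, with *Ptprc* at 26, 41 and 19 counts and *Cd52* at 48, 12 and 19, called lower in eKO than control (-2.04). Of 17 other secreted antimicrobial genes tested, 2 were higher in eKO than in control, *S100a8* and *Hp* (12, 67 and 21 counts), and none was lower (median 0.32). With rLif against eKO 3 were lower, *S100a8*, *Saa1* (1, 12 and 0 counts) and *Trf*, which encodes transferrin (71, 120 and 30), with a median of -0.77. Against control 2 were lower, *Chi3l1* (153, 98 and 57) and *Lgals3* (2589, 2017 and 1066), with a median of -0.33. *Tlr2* was the 1 of 25 tested regulators called for eKO against control, higher at 36, 153 and 92 counts (median -0.073), none was called with rLif against eKO (median -0.28), and 4 were lower against control, *Nfkbia*, *Nfkbiz*, *Foxa2* and *Tlr4* (median -0.49). Of 7 receptors and partners tested, none was called for eKO against control (median -0.075). *Slc40a1*, the iron exporter ferroportin, had 5173, 4971 and 1762 counts and was lower with rLif against both others. It alone was called with rLif against eKO (median -0.35). Against control 1 was lower, *Slc40a1*, and 1 was higher, *Mmp9* (19, 43 and 90 counts), with a median of -0.43.

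The 2 tissues were last set side by side. Scaling was done within each tissue, so levels across tissues are given only as a description. *Lcn2* stood at 166.4, 3.83 and 338.9 CPM in the luminal layer and at 0, 3.27 and 0.669 CPM in blastocysts. In the eKO pair the luminal and blastocyst levels of *Lcn2* were thus close, a ratio of 1.17 (0.852 to 1.62), while the rLif-treated luminal library exceeded its blastocysts 506.8-fold (296.2 to 952.2). *Ltf* was 691-fold (236.2 to 3353), 61.4-fold and 211.8-fold higher in the luminal layer. *Slpi* had 3.33, 1.11 and 0.576 CPM in the luminal layer against 1.94, 5.27 and 0.669 in blastocysts, so that in the eKO pair blastocysts held more.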

How the data were processed

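Libraries were prepared by the authors with SMART-seq v4 chemistry. They aligned reads with HISAT2 to GRCm38/mm10 and counted them per gene with featureCounts (Subread 2.0.0). Each of the 2 deposited tables, 1 per tissue, held raw read counts as whole numbers, although the study's methods describe the output as RPKM. Annotation release, strand setting and treatment of reads mapping to several places were not given in the sources used here. Genes with at least 10 counts over the 3 libraries of a tissue were tested (15694 luminal, 14873 blastocyst). Library sizes were scaled by TMM within a tissue (edgeR 4.0.16, R 4.3.3), and CPM used these sizes. Intervals were exact at 95%, by Clopper-Pearson for ratios and by Poisson for single counts, computed in scipy 1.17.1 (Python 3.11.15). Both cover the counting error of reads only. PCR reads without molecular identifiers are not independent molecules, so the intervals can be too narrow even for the counting error of molecules. A count of 0 was replaced by a floor of 3 counts where a fold or log2 ratio against it is given. The calling rule was tested on simulated libraries with Poisson counts only. These held no variation between animals or from PCR, so that test cannot show how the rule performs on the real libraries. All counts are reads of pooled libraries, 1 per group, assigned to groups from the sample labels.

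The 7 genes, 16 gene lists and motifs were chosen with earlier results of these data known. Of 156 listed symbols, 153 were found, 5 of them under an older symbol. From each list, defining markers and up to 6 called genes per luminal comparison, those with the interval bound nearest 0 farthest from 0, were named, with the 3 genes of nearest pattern for each called member. Genes named outside this rule, among them all blastocyst companions other than defining markers, were chosen after their values were seen. Alternatives were other scalings, count minimums, limits and confidence levels, edgeR's exact test with an assumed dispersion of 0.1 (FDR below 0.05), adding *Lyz1* and *Lyz2*, other denominators of the share, and coding length. Figures were drawn with matplotlib 3.10.9. Promoters were taken from RefSeq, in which all 7 symbols matched.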

Additional observations from a re-analysis of the deposited data

Results flagged for a closer look

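*Lcn2* was flagged because its libraries differed beyond the limit in opposite directions in the 2 tissues. For eKO against control the log2 ratio was -5.44 in the luminal layer and 4.38 in blastocysts. The blastocyst control had 0 counts, taken at the floor for this ratio, and the counting interval of the ratio began at 4.04. For eKO + rLif against eKO the log2 ratio was 6.47 in the luminal layer and -2.29 in blastocysts. The difference between tissues was not tested, since each group was 1 library, and the 2 comparisons share the eKO library in each tissue. The blastocyst values rest on 0, 64 and 13 counts, the luminal ones on 4200, 110 and 8824.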

How the results depend on the processing

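Of 338 recomputed log2 ratios of the 7 genes, 305 kept their side of the limit, with the same direction where called, 19 lost a call, 13 gained one and 1 reversed. The reversal was *Lyz1* for luminal eKO against control, at -0.075 with *Lyz1* and *Lyz2* added. That sum is mostly *Lyz2*, so it cannot show whether the *Lyz1* ratio holds. With a limit of 0.5 the number called was 5 for luminal eKO against control (3 at the limit of 1), 5 for luminal eKO + rLif against control (2) and 3 for blastocyst eKO against control (1). With a limit of 2 it was 1 for luminal eKO + rLif against eKO (2), 0 for luminal eKO + rLif against control, 2 for blastocyst eKO + rLif against eKO (4) and 0 for blastocyst eKO + rLif against control (2). With edgeR's exact test these 4 comparisons had 1, 0, 1 and 0 calls, and with a 99% interval the last had 1. Fewer calls under a higher limit or a 99% interval, and more under a lower limit, follow from their construction. The exact test uses an assumed dispersion and another threshold, and why it called fewer was not tested. Over all genes, numbers called in the luminal comparisons (2704, 2456 and 1438) became 5646, 4885 and 3703 with a limit of 0.5, 868, 750 and 295 with a limit of 2, and 1250, 1109 and 342 with edgeR's exact test. The blastocyst numbers (468, 557 and 734) became 1094, 1526 and 1654 with a limit of 0.5, 100, 93 and 149 with a limit of 2, 65, 58 and 124 with the exact test, 210, 325 and 447 with a minimum of 50 counts, and 255, 328 and 477 with a 99% interval. By coding length (GENCODE M21, chosen after seeing the data because the planned length from a protein table was not run), *Lyz2* and not *Wfdc2* led control blastocysts and the first place held in the other 5 libraries. Lower places changed in luminal control and eKO (2 each) and in eKO and eKO + rLif blastocysts (2 and 3). No paired analysis was possible because each group was 1 library, and no replicate could be left out. Depth limits *Ltf* and *Lcn2* in blastocysts and *Slpi* in both tissues.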
